A study of Homo sapiens with 40 samples.

Results

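The regions described here are the 3445 H3K27ac peaks of a human beta-cell line that lay in gene deserts and were on neither of the enhancer lists deposited with the peaks. They were chosen by position, width and absence from those lists, out of 51489 H3K27ac peaks on the hg38 genome. Of these, 50680 were under 10 kb wide, 34045 also lay outside both enhancer lists, 29352 also lay more than 2 kb from every lncRNA start site, and 8137 of those had their centre outside protein-coding genes. The last condition, a centre 100 kb or more from the nearest start of a protein-coding transcript in GENCODE 44, left 3445 peaks. The fold changes were not used directly in the choice, but the enhancer lists were made from H3K27ac and H3K4me1 of each state, so leaving out listed peaks also selected on H3K27ac level, and a bearing on the change between states cannot be set aside. The lists used below to group nearest genes and motifs were drawn up with earlier results of these data known.

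The cells were EndoC-βH3, an established human beta-like cell line that carries hTERT and the SV40 Large T antigen and a CreER recombinase activated by 4-hydroxytamoxifen. Non-senescent cells were labelled as controls, whereas senescent cells had been given 4-hydroxytamoxifen for 3 weeks, which excises both immortalizing genes. H3K27ac and CTCF were each profiled by ChIP-seq in 3 libraries per state, and H3K4me1 and Rb in 2 per state, each with matched input. All libraries came from this 1 cell line, and the labels do not say whether replicate libraries came from separate cultures, so p-values measure the spread between these libraries, which may be technical. All 10 beta-cell genes examined, INS, IAPP, PDX1 and NKX6-1 among them, had an H3K27ac peak within 2 kb of a start site. Of genes of other cells, PTPRC, PECAM1, COL1A1 and CELA3A had none and CPA1 and KRT19 had one or more. These genes were chosen after their values were seen. A peak at a start site, as at CPA1 and KRT19, does not by itself separate cell types, so this is a description and no test.

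Acetylation of lysine 27 of histone H3 marks promoters and enhancers that are in use, and is laid down by the coactivators p300 and CBP when transcription factors recruit them. Gene deserts are long stretches of the genome without protein-coding genes, and many of them flank genes of development and hold enhancers that act over great distances through loops of chromatin, often anchored by the insulator protein CTCF. A peak was on an enhancer list when it was marked by both H3K27ac and H3K4me1 in that state, outside promoters. H3K4me1 itself was not analysed here.

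The following stretches of named peaks are shown because they hold the motifs whose shares differed most between gained and lost peaks, or a CTCF site, a choice made after the values were seen. Each line gives the gene nearest to the peak and the hg38 coordinates of the stretch, as reference sequence from 5′ to 3′. The first 3 stretches lie around the peak centre and the last lies around the CTCF core letters. In the first 3, capitals mark TGCTGAC, part of the MAF element, or CAGATGG, an E-box of the kind bound by NEUROD1, on either strand. In the last, capitals mark the CTCF core letters AGGGGGC on either strand.
LYSMD4 gained (chr15:99884674-99884973, plus strand): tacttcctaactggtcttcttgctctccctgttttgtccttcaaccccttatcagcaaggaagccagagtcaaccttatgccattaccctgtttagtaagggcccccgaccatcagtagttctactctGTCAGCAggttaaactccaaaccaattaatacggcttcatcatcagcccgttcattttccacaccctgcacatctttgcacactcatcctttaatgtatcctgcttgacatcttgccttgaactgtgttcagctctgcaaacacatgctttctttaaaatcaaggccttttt
ZFHX3 lost (chr16:72705187-72705486, plus strand): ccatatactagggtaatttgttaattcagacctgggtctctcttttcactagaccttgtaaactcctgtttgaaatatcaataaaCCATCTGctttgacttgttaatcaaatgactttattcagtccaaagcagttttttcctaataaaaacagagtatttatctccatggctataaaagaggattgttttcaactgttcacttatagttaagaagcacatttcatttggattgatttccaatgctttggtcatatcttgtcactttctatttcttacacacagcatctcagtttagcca
NKX6-1 lost (chr4:84032391-84032690, plus strand): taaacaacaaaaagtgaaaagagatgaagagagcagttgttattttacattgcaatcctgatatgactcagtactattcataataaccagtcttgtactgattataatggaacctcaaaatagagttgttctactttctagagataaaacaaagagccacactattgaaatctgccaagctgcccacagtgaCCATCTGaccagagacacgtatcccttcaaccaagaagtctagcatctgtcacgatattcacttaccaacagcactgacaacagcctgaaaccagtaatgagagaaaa
PIK3C3 lost (chr18:41395761-41396060, plus strand): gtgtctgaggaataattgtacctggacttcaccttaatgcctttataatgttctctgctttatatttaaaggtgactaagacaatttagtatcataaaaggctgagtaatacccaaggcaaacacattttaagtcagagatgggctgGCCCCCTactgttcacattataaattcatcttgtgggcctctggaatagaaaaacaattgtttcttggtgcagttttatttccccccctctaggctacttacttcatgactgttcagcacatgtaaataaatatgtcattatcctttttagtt
The LYSMD4 peak gained H3K27ac in senescent cells, and its stretch held 1 match, to the MAF letters. The ZFHX3 and NKX6-1 stretches, from peaks that lost H3K27ac, held 1 E-box each. The PIK3C3 stretch lies under a CTCF peak at which both H3K27ac (log2 -1.25, SE 0.27) and CTCF (log2 -0.65, SE 0.28, adjusted p 0.18, past the looser threshold of 0.2 used for CTCF) fell.

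The desert peaks were narrow and shallow. Their median width was 756 bp, the quartiles were 500 and 1143 bp, and 1110 (32.2%) were exactly 500 bp, the smallest width in the table. The median normalized read count, averaged over the 6 H3K27ac libraries, was 35.0 (lowest 8.27, highest 1780), against 119 over all peaks and 217 for the 3211 listed enhancer peaks that met the same distance condition. Per kilobase the gap was smaller, 46.1 reads for the desert peaks against 88.2 for the listed ones. Unlisted intergenic peaks nearer than 100 kb to a start site were alike in width (median 779 bp) and in read count (median 36.0). The central 500 bases had a median GC content of 40.6%, against 41.6% for the listed peaks in deserts and 46.2% for all peaks. In 105 desert peaks (3.05%, against 2.98% of all peaks), more than 50% of the 31-base words in the central window occurred more than once in the genome. Reads there may not have been placed with certainty, though read placement itself was not examined.

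H3K27ac changed with senescence in both directions at these peaks. Calls required a change of more than 1.5-fold with an adjusted p below 0.05 in the deposited DESeq2 comparison, and 22.6% of all 51489 peaks met both, 9.47% as gained and 13.1% as lost. Of the 3445 desert peaks, 399 were gained (11.6%, 95% Wilson interval 10.6 to 12.7) and 530 were lost (15.4%, 14.2 to 16.6), and 2516 passed neither test. By a stricter test against a fold change of 1.5, made from the deposited log2 fold changes and standard errors, 38 were gained and 49 lost, 2.53% of the desert peaks against 4.64% of all peaks, so the desert share was then below that of all peaks. By the first, less strict calls, lost peaks made up 57.0% of the called desert peaks (53.8 to 60.2), against 58.1% over all peaks. The intervals cover counting error only and treat neighbouring peaks as independent, which they were not. The median log2 fold change, senescent over non-senescent, was -0.09 over all desert peaks, with quartiles of -0.60 and 0.45, and 0.01 over all peaks. The median log2 fold change was 1.10 among gained peaks (0.59 to 2.73) and -1.11 among lost peaks (-2.67 to -0.59), a 2.14-fold gain and a 2.15-fold loss. The scaling of the libraries to each other removes any change shared by the whole genome, so these values are relative to the rest of the peaks.

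**Figure D1:**
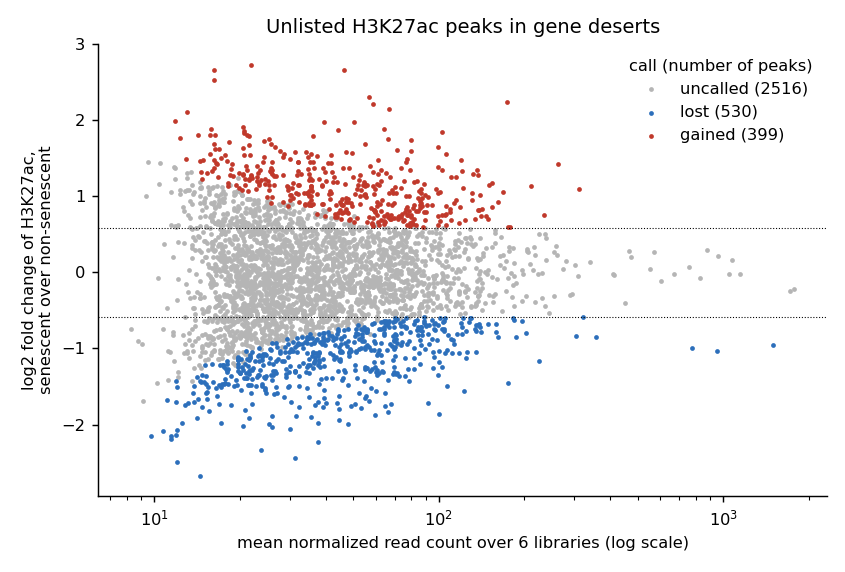
Each point is 1 of the 3445 unlisted H3K27ac peaks in gene deserts, with its mean normalized read count over the 6 libraries on a log axis and its log2 fold change of senescent over non-senescent cells, coloured by call. Dotted lines mark a fold change of 1.5 in either direction; gained and lost peaks spread over the whole range of counts, and the 2516 uncalled peaks fan out toward low counts.

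Low counts limited what could be called. The median standard error of the log2 fold change was 0.35 in the desert peaks and 0.15 in the listed enhancer peaks of deserts. Among desert peaks with a mean count under 25, 7.0% were gained and 11.9% lost, and among those with 50 to 100 reads 16.9% and 20.1%. Compared at equal counts, the share lost in deserts was close to that of unlisted intergenic peaks nearer to genes (21.6% at 50 to 100 reads, interval 19.0 to 24.6) and above that of unlisted peaks inside protein-coding genes (10.3%, 9.23 to 11.6). The share gained at 50 to 100 reads was 16.9% (14.5 to 19.6) in deserts, 13.7% (11.5 to 16.2) in the nearer intergenic peaks and 15.4% (14.1 to 16.9) inside genes. Listed enhancer peaks of the deserts with 50 to 100 reads were lost in 35.2% of cases (30.8 to 39.8). That share was 45.5% at 25 to 50 reads and 22.4% over 100. A mark in either state was enough for listing, so a listed peak with few reads may be listed only through its higher state. The listed shares at a given count are therefore not comparable with those of unlisted peaks.

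**Figure D2:**
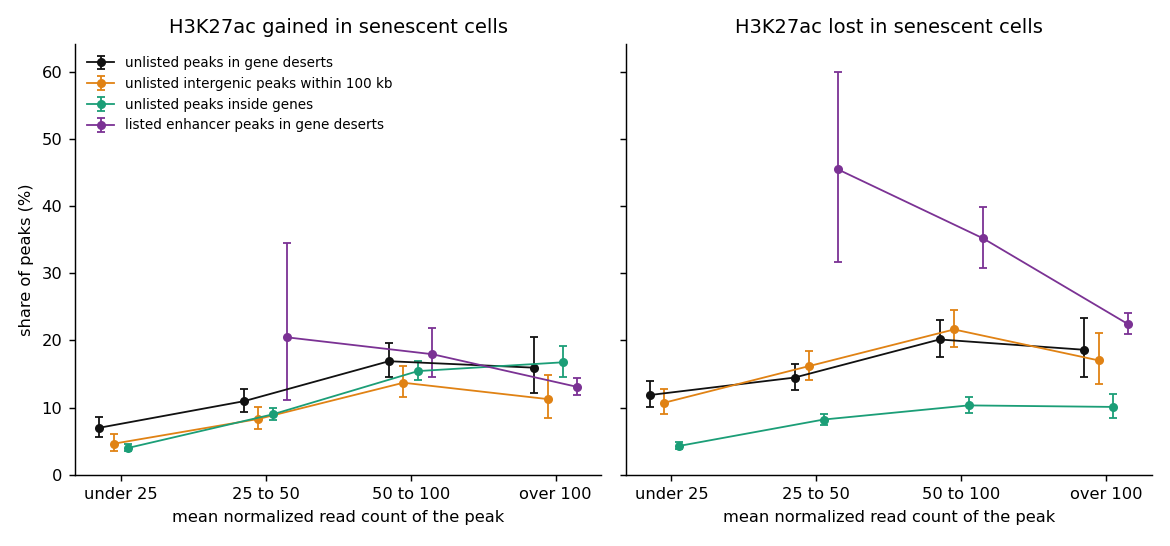
The share of peaks gained (left) and lost (right) in senescent cells is plotted by mean normalized read count for 4 classes of peak, with 95% Wilson intervals as bars; bins under 20 peaks are not drawn. Unlisted desert peaks follow the nearer intergenic peaks in the share lost, and at 50 to 100 reads peaks inside genes lie lower, at 10.3%.

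The gained desert peaks with the smallest adjusted p were spread over 6 chromosomes. Nearest genes are named only to place a peak, since nothing in these data ties a peak to a target gene. The first, chr15:99883763-99885885, lay 151 kb from LYSMD4, within the body of a lncRNA, and rose 4.72-fold (log2 2.24, SE 0.18, adjusted p 1.8e-32) at a mean count of 174. A peak 494 kb from TBC1D22A, which encodes a TBC-domain protein, rose 2.69-fold (log2 1.43, SE 0.13, adjusted p 2.6e-25). A peak 842 kb from IFTAP rose 3.59-fold at a GC content of 31.6%. A peak 547 kb from PPARGC1A, the coactivator of mitochondrial biogenesis, rose 4.64-fold (log2 2.21, SE 0.29) at a mean count of 58.5. The 2 others lay 199 kb from DCN, which encodes the matrix proteoglycan decorin, and 477 kb from CBLN4, a secreted synaptic organizer. Those 2 rose 2.14-fold and 2.20-fold. None of the 6 lay within 45 kb of a listed enhancer, and the nearest to one, beside TBC1D22A, was 45.9 kb away.

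The lost desert peaks with the smallest adjusted p included the widest of all. A peak of 7654 bp, 130 kb from SKOR2, a transcriptional corepressor gene of neurons, fell 1.93-fold (log2 -0.95, SE 0.08, adjusted p 1.3e-31). Its mean count of 1503 was the third highest among the desert peaks, it lay within the lncRNA gene MIR4527HG and 2.18 kb from an enhancer listed in non-senescent cells only, and it overlapped a CTCF peak. A peak of 6350 bp 119 kb from RPIA, an enzyme of the pentose phosphate pathway, fell 2.05-fold (log2 -1.04, SE 0.08, adjusted p 9.8e-35). The peak nearest to NBPF11, a gene of a multicopy family, covered the small nuclear RNA gene RNVU1-22 and fell 1.99-fold, although only 1.28% of its central words were repeated in the genome. Peaks 130 kb from NDUFA12, a subunit of respiratory complex I, and 154 kb from GOLIM4, a Golgi protein, fell 2.75-fold and 2.23-fold, and both overlapped a CTCF peak and had GC contents of 75.6% and 72.4%. A peak 103 kb from TLN2, the cytoskeletal linker talin 2, fell 3.62-fold (log2 -1.86, SE 0.22). Of these 6, RPIA, SKOR2 and TLN2 had a listed enhancer within 10 kb.

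Of the 3 desert peaks with the highest counts, the SKOR2 peak alone was called. The peak with the most reads, 176 kb from AGMO, held a mean of 1780 reads in 554 bp (3213 per kb) at a GC content of 23.8%. Its log2 fold change was -0.21 with a standard error of 0.24, a large error for such a count. The next, a 5047-bp peak within LINC00603 and 590 kb from DAB2, had 1713 reads and a log2 fold change of -0.24 (SE 0.08, adjusted p 0.013), short of the fold threshold. The desert peak farthest from any protein-coding start lay 5.39 Mb from TPTE, on the short arm of chromosome 21, with a log2 fold change of 0.30 (SE 0.20) and 80.2% of its words repeated. At the other end of the distance condition, the peaks just inside it lay 100089 bp from TBC1D1, 100165 bp from SALL1 and 100180 bp from MAST4, with log2 fold changes of 0.56, 0.91 and -1.32. Those just outside lay 99949 bp from SIRPG, 99823 bp from SYNPR and 99821 bp from WSCD2, with values of -0.65, 0.03 and 0.67.

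The balance of gain and loss shifted with distance from genes. The desert peaks lay at a median of 291 kb from a protein-coding start. Among the 1110 at 100 to 200 kb, 203 were lost (18.3%, 16.1 to 20.7) and 112 gained (10.1%, 8.45 to 12.0). At 300 to 500 kb the counts were even, with 109 lost and 110 gained of 768. Beyond 1000 kb, 27 of 256 were lost (10.5%, 7.35 to 14.9) and 31 gained (12.1%, 8.66 to 16.7). Median read counts were alike in all 5 bins, between 33.9 and 36.7. Listed enhancer peaks of the deserts showed the same order, from 29.1% lost and 12.5% gained at 100 to 200 kb to 14.2% lost and 17.3% gained beyond 1000 kb. By chromosome, 16 of the 22 chromosomes with 20 or more desert peaks had more lost than gained peaks, 4 had more gained and 2 had equal numbers. Chromosome 5 held the most desert peaks, 326, and chromosome 19 held 5.

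**Figure D3:**
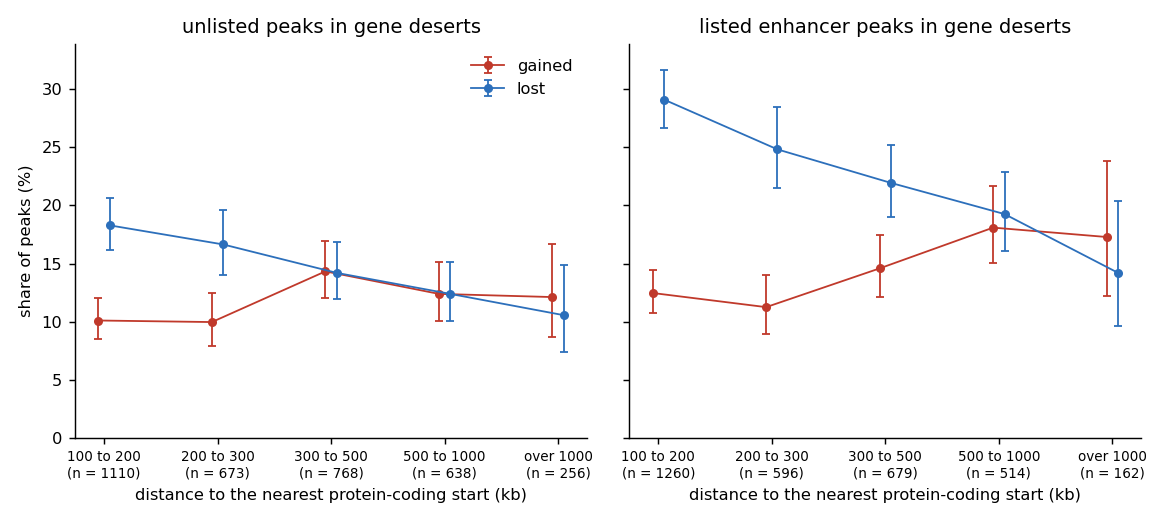
The share of peaks gained (red) and lost (blue) in senescent cells is plotted against distance to the nearest protein-coding start, for unlisted peaks (left) and listed enhancer peaks (right) of gene deserts, with 95% Wilson intervals. In the unlisted peaks the share lost declines from 18.3% to 10.5% across the 5 bins and the share gained lies between 9.96% and 14.3%.

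Desert peaks were then grouped into stretches with no protein-coding start between them. The 3445 peaks fell into 949 stretches, of which 324 held 1 peak and 68 held 10 or more, 964 peaks together. No peak was called in 420 stretches and 1 was called in 306. Of the 223 stretches with 2 or more called peaks, 77 had only lost, 44 only gained and 102 had both.

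The largest stretch lay on chromosome 18 between CELF4, an RNA-binding protein gene of neurons, and PIK3C3, the class III phosphoinositide 3-kinase of autophagy. It held 38 desert peaks over 4152 kb (chr18:37698126-41850436), 8 gained and 9 lost, and these did not mix. The 8 gained peaks lay 288 to 2105 kb from the first peak of the stretch and the 9 lost peaks 2348 to 4046 kb from it. Log2 fold changes of the gained peaks ran from 0.70 to 1.31 and those of the lost peaks from -1.58 to -0.60. Taken by the nearer gene, the 20 peaks on the CELF4 side had a median of 0.48 (16 above 0, 7 gained, 0 lost), and the 18 on the PIK3C3 side one of -0.62 (2 above 0, 1 gained, 9 lost). The listed enhancer peaks of the same stretch were divided in the same way, with 5 of 16 gained and 0 lost on the CELF4 side and 0 gained and 3 of 11 lost on the PIK3C3 side. The division was seen in the values and no test of it was made.

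The stretch between KIF20B, a mitotic kinesin gene, and HTR7, a serotonin receptor gene, held 26 desert peaks over 460 kb. Of these, 25 had a log2 fold change above 0, with a median of 0.50, although only 4 passed the test, and the 8 listed enhancer peaks of that stretch had a median of 0.03. Many of the desert peaks there had few reads. Their mean counts ran from 13.0 to 165, their standard errors reached 0.61, and a gained peak had only 15.9 reads.

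In 11 stretches at least 4 desert peaks were called and all of them moved in 1 direction, in 8 stretches up and in 3 down. How many stretches with as many calls were mixed was not counted. All 5 peaks between DOK5 and CBLN4 were gained, with log2 fold changes of 0.88, 1.14, 1.16, 1.65 and 1.98, and both listed enhancer peaks there were gained too. All 5 peaks between RIOK2 and RGMB, a coreceptor for bone morphogenetic proteins, were lost, with values of -1.71, -1.58, -1.56, -1.37 and -1.21. Mean counts in the RGMB stretch were low, 13.7 to 60.3 reads. The stretch between SLC4A3 and EPHA4, an ephrin receptor gene, had 5 lost of 9 desert peaks and 4 lost of 6 listed peaks. Between CHD1 and FAM174A, 4 of 11 desert peaks and 5 of 8 listed peaks were gained. From DUSP4 to SARAF, 4 of 12 desert peaks and 7 of 15 listed peaks were lost. From LSAMP to IGSF11, 4 of 6 desert peaks and the 1 listed peak were gained. In other stretches the listed peaks did not share the direction, in some on few or no called peaks. From ZNF608 to GRAMD2B, 5 were gained and 0 lost among 22 desert peaks but 4 gained and 5 lost among 32 listed ones. Between ST3GAL1 and ZFAT, 4 of 6 desert peaks were gained while 2 of 5 listed peaks were lost. Between SORCS3 and SORCS1, 4 of 12 desert peaks were gained while 1 of 7 listed peaks was lost. Between STIM2 and PCDH7, 4 of 7 desert peaks were gained, and neither of the 2 listed peaks, with a median of -0.46, was called.

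**Figure D4:**
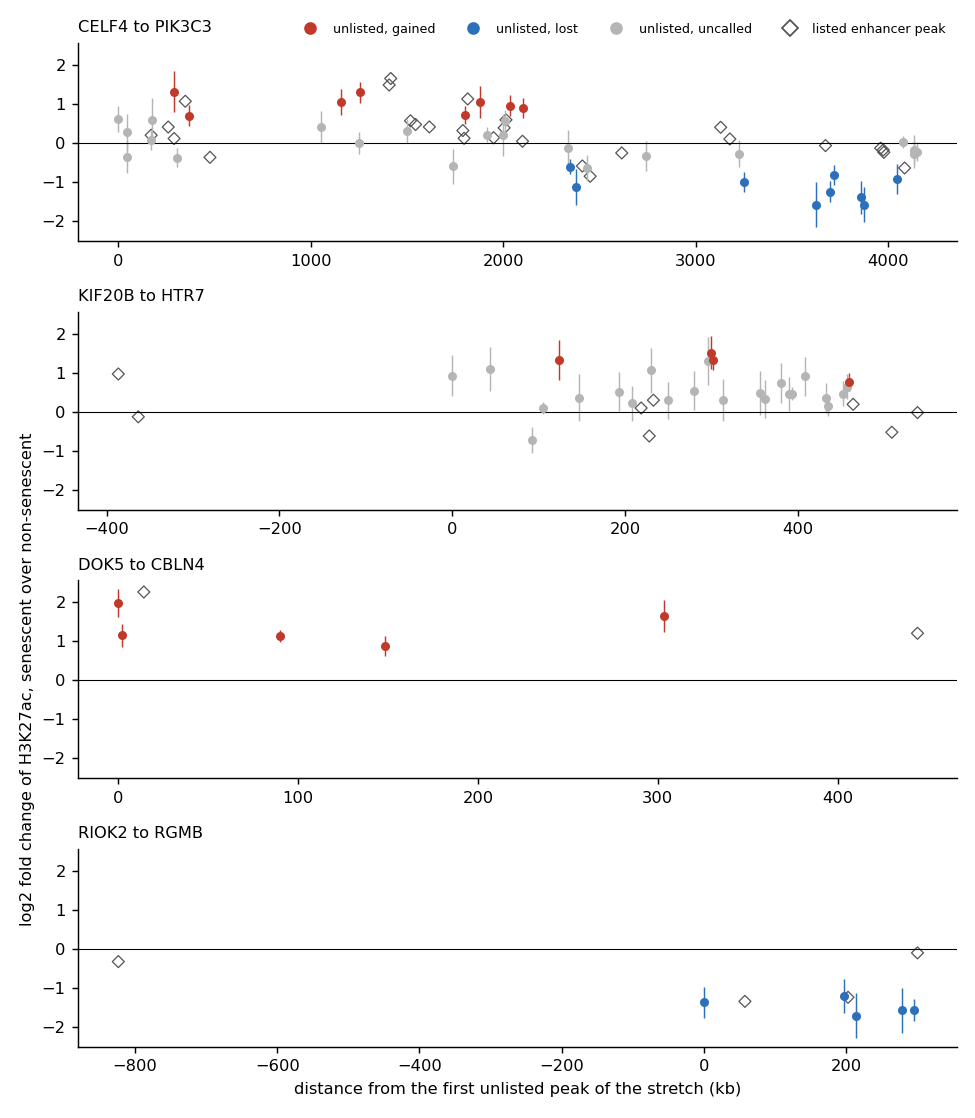
Log2 fold change of H3K27ac (circles, with the standard error as a bar) is plotted along 4 gene deserts, named by the protein-coding genes at each end, against distance in kb from the first unlisted peak; diamonds are listed enhancer peaks. In the CELF4 to PIK3C3 desert the gained peaks end at 2105 kb and the lost peaks begin at 2348 kb, and the DOK5 to CBLN4 and RIOK2 to RGMB deserts hold 5 gained and 5 lost peaks.

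Neighbouring desert peaks changed alike, the more so the closer they lay. Over 355 pairs of adjacent peaks under 5 kb apart, Spearman's rho of their log2 fold changes was 0.63, and it was 0.34 over 345 pairs at 5 to 20 kb, 0.19 over 837 pairs at 20 to 100 kb and 0.13 over 959 pairs farther apart in the same stretch. In 34 pairs under 5 kb apart both peaks were called, and all 34 moved in the same direction. Beyond 100 kb, 59 of 80 such pairs did. The same held for a desert peak and the nearest listed enhancer peak, with rho of 0.50 over 387 pairs under 5 kb apart, 0.39 over 755 at 5 to 20 kb, 0.23 over 1165 at 20 to 100 kb and 0.13 over 1138 beyond. These are correlations across sites measured in the same 6 libraries, which share errors of scaling.

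Most desert peaks stood apart from listed enhancers. Within 10 kb of one lay 861, and 1119 (32.5%) were more than 100 kb from any. Of the 2584 beyond 10 kb, 315 were gained and 410 lost, and of the 861 within it 84 and 120. Where the nearest listed enhancer lay within 10 kb, the direction went with its list. Of 211 peaks beside an enhancer listed in non-senescent cells only, 7 were gained and 50 lost, with a median log2 fold change of -0.30. Of 97 beside an enhancer listed in senescent cells only, 14 were gained and 6 lost, with a median of 0.27. The 553 beside an enhancer of both lists had 63 gained and 64 lost and a median of 0.03. The lists were themselves made from H3K27ac of these libraries, so this is not independent of the measurement.

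By nearest gene, the desert peaks fell to 1260 protein-coding genes. The list of islet and pancreatic transcription factors took 76 peaks at 19 genes, of which 4 were gained and 17 lost, with a median log2 fold change of -0.28. Other developmental transcription factors took 127 peaks, 12 gained and 27 lost (median -0.14), and synaptic and cell adhesion genes 333 peaks, 40 gained and 44 lost (median -0.07). Genes of channels, receptors and secretory granules took 124 peaks, 18 gained and 12 lost (median 0.18). The 2785 peaks nearest to other genes had 325 gained and 430 lost (median -0.09). These counts are descriptions, since the lists were drawn up with earlier results known and peaks near 1 gene share a neighbourhood.

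Among the islet factors, IRX2 had 3 lost of 5 peaks and SOX4 3 lost of 5, and both peaks near MEIS1, a homeobox cofactor, were lost. The IRX2 peak with the smallest adjusted p, 352 kb from the gene, fell 2.41-fold (log2 -1.27, SE 0.29). A peak 343 kb from ZFHX3, a zinc finger homeobox gene, fell 2.57-fold (log2 -1.36, SE 0.25, adjusted p 4.8e-07). The MEIS1 peak 465 kb away fell 2.47-fold and lay in the lncRNA gene LINC02934. The single peak near RFX3, a factor of ciliated and endocrine cells, fell 3.00-fold at only 26.9 reads (SE 0.41). A peak 656 kb from ISL1, a LIM homeobox factor of islet cells, rose 1.97-fold (log2 0.98, SE 0.24), 2.21 kb from an enhancer of both lists, and of the 6 desert peaks nearest to ISL1 1 was gained and 1 lost. NKX6-1, a beta-cell homeobox factor, had 1 peak gained and 1 lost, the latter 464 kb away with a 1.61-fold fall. The 7 peaks nearest to PROX1 and the 5 nearest to NR5A2 held no call.

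CTCF peaks overlapped 427 of the desert peaks (12.4%, 11.3 to 13.5), against 20.5% of the unlisted intergenic peaks nearer to genes, 19.6% of the listed enhancer peaks in deserts and 26.9% of all peaks. An overlap of 1 base was enough, so wider peaks had more room for one. Median widths were 756 bp in desert peaks and 779 bp in the nearer intergenic ones. They were 2416 bp in the listed peaks of deserts and 1742 bp over all peaks, so those 2 shares are not compared at like width. The overlapping desert peaks were wider (median 893 bp against 721 bp) and had more reads (47.9 against 33.5) than the others. Among these 427, 44 were gained and 76 lost. Over all desert peaks 11.6% were gained and 15.4% lost, and over all H3K27ac peaks 9.47% and 13.1%. With the centre of the CTCF peak required inside the desert peak, 323 rather than 427 desert peaks overlapped one. Calls for CTCF itself required a change of more than 1.5-fold with an adjusted p below 0.2, and of the 39485 CTCF peaks with an adjusted p 7.27% met both, 2.99% as gained and 4.28% as lost. CTCF peaks were not filtered here for the CTCF motif, whereas those of the paper's comparison were. Of 424 CTCF peaks in desert peaks, 317 had an adjusted p, 15 were gained and 14 lost. Over the 431 overlapping pairs, the log2 fold changes of H3K27ac and CTCF had a Spearman's rho of 0.37. H3K27ac and CTCF were profiled in separate libraries. Both were called in 12 pairs, 7 lost together, 4 gained together and 1, near LRIG3, with H3K27ac lost and CTCF gained.

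The joint loss with the smallest adjusted p-values lay 757 kb from the potassium channel gene KCNA4. There H3K27ac had a log2 fold change of -1.99 (SE 0.34) and CTCF one of -1.29 (SE 0.32, adjusted p 0.0058). These 2 peaks overlapped only at their ends, since the H3K27ac peak ended at 29260909 and the CTCF peak spanned chr11:29260825-29261339. Near ESRRG, a nuclear receptor gene, the values were -0.91 and -0.96, and near KIT, a receptor tyrosine kinase gene, -1.26 and -0.94. The MEIS1 peak named above fell together with CTCF (log2 -1.42, SE 0.46). Joint gains lay near PTPRU (0.91 for H3K27ac and 0.65 for CTCF), NDUFA10 (1.01 and 0.82), TECRL (1.47 and 0.63) and ALCAM (0.71 and 0.59). Searched over their whole length on both strands, 75 of the 424 CTCF peaks within desert peaks (17.7%) held the core letters, against 24.8% of all CTCF peaks. Those in desert peaks were 740.5 bp wide at the median against 849 bp for all CTCF peaks, and had a median GC content of 43.7% against 46.4%. The deposited Rb list holds only regions specific to senescent cells, and these overlapped 6 desert peaks (0.174%, against 0.691% of all H3K27ac peaks). The low share was not particular to deserts. It was 0.146% in the nearer unlisted intergenic peaks, 0.0383% in unlisted peaks inside genes and 0.467% in listed enhancer peaks of deserts. One of the 6 desert peaks, near FAM98A, was lost (log2 -0.72, SE 0.26, adjusted p 0.015), and in 3 of the 6 more than 50% of the words were repeated in the genome.

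Motif letters were searched on both strands in the central 500 bases. The E-box CAGATGG was found in 21.7% of lost desert peaks (18.4 to 25.4), 14.8% of uncalled ones and 11.5% of gained ones (8.76 to 15.0), against 13.4% of all H3K27ac peaks. The MAF letters TGCTGAC were in 14.5% of gained (11.4 to 18.3), 9.10% of uncalled and 9.62% of lost peaks (7.39 to 12.4), against 8.23% of all peaks. The intervals of gained and lost peaks overlapped for the MAF letters and did not for the E-box. Desert peaks with the E-box had a median log2 fold change of -0.23 (46 gained and 115 lost of 534) and those without it one of -0.06. Desert peaks with the MAF letters had a median of 0.04 (58 gained and 51 lost of 338) and those without one of -0.10. Gained and lost peaks differed little in GC content, with medians of 40.6% and 41.6%.

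In other classes of peak, too, the E-box share was higher in lost and the MAF share higher in gained peaks. In listed enhancer peaks of deserts, the E-box was in 23.0% of lost and 14.6% of gained peaks and the MAF letters in 6.87% and 17.3%. In unlisted peaks inside genes, the E-box was in 20.1% of lost and 10.9% of gained peaks and the MAF letters in 7.43% and 12.4%. The AP-1 site TGANTCA was in 21.8% of gained (18.0 to 26.1) and 17.0% of lost desert peaks (14.0 to 20.4), with intervals that overlap, against 14.9% of all peaks. It was in 19.5% of all desert peaks and 18.8% of listed enhancer peaks of deserts. Unlisted peaks inside genes held it in 17.4% and the nearer unlisted intergenic peaks in 16.3%. The homeodomain core TAATTA, which is rich in A and T, was in 21.7% of desert peaks against 14.3% of all peaks, with 21.3% of gained and 23.2% of lost. Listed enhancer peaks of deserts held it as often, in 21.6%. The E2F letters TTTCCCGC were in 0.232% of desert peaks against 0.983% of all, and the CTCF core in 3.74% against 10.8%. Classes more like the desert peaks lay nearer to them. The E2F letters were in 0.374% of listed enhancer peaks of deserts and 0.245% of unlisted peaks inside genes, and the CTCF core in 5.11% and 5.84%. The GATA letters AGATAAG were in 6.52% of gained and 10.2% of lost peaks, and the forkhead letters TGTTTAC in 11.0% and 14.2%. The TEAD letters GGAATG were in 22.1% and 22.8%, and the RFX half-site GTTGCC in 17.8% and 18.5%. The HNF1 letters GTTAATNAT were in 4.26% of gained and 2.64% of lost peaks. The p53 half-site CATGCCC was in 4.26% and 3.58%. For each of these 6 motifs the intervals of gained and lost peaks overlapped. The CREB letters TGACGTCA were in 0.0871% of desert peaks. A match describes the letters in a window and does not show that a factor was bound.

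**Figure D5:**
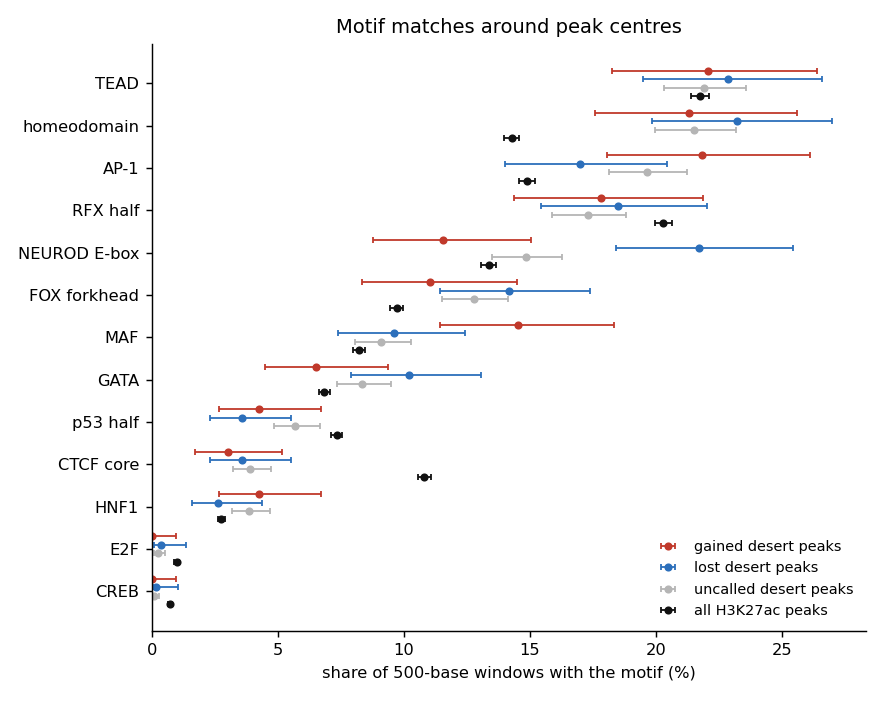
The share of 500-base windows around peak centres that held each motif is plotted for gained, lost and uncalled unlisted desert peaks and for all H3K27ac peaks, with 95% Wilson intervals. The E-box stands at 21.7% in lost against 11.5% in gained peaks, and the MAF letters at 14.5% in gained against 9.62% in lost peaks.

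Of the desert peaks, 1194 (34.7%) had their centre inside a lncRNA gene body, though over 2 kb from its start sites. Of these 132 were gained and 162 lost, with a median log2 fold change of -0.06, and of the 2251 outside lncRNA genes 267 were gained and 368 lost, with a median of -0.10. Over all desert peaks the shares were 11.6% gained and 15.4% lost, and over all H3K27ac peaks 9.47% and 13.1%.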

How the data were processed

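The authors trimmed the reads, aligned them to hg38 with Bowtie2, removed duplicates, called H3K27ac peaks with HOMER against input and CTCF peaks with MACS2, and compared the states with DESeq2 on raw read counts. The deposited tables hold per peak a mean normalized count over libraries (a signal), a log2 fold change, its standard error, a p-value and an adjusted p-value, with no value per library, so depth per library is unknown here and no model could be refitted. The deposited fold changes and adjusted p-values were therefore used as given, with the adjustment over the whole table. The deposited enhancer and Rb lists were used as coordinates. Versions of the authors' tools are not given in the sources used here.

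Start positions in the files count from 0 and are printed counting from 1. Chromosome names and lengths matched hg38, and no region ran past a chromosome end. Distances to protein-coding starts (GENCODE 44) were taken from the peak centre and those to lncRNA starts from the nearest edge. An overlap was 1 base or more. A 31-base word was repeated if it occurred more than once in hg38. The regions and lists were chosen with earlier results of these data known. Named were the 6 gained and 6 lost peaks with the smallest adjusted p, the 3 with the highest counts, the 3 stretches with most peaks (1 of which is not reported here), the farthest peak, and up to 8 called peaks nearest to an islet factor. Stretches called in 1 direction, joint CTCF calls and marker promoters were chosen after their values were seen. The printed sequences are a named gained peak with the MAF letters, 2 named lost peaks with the E-box and 1 CTCF site. Classification and adjustment were tested on simulated data. Analyses used Python 3.11.15, pandas 2.3.3, scipy 1.17.1 and pysam 0.24.0.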

Additional observations from a re-analysis of the deposited data

How the results depend on the processing

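Of 45 values recomputed under other settings, 35 stayed close to those reported (counts within 1.5 times, the median within the median standard error), and lost peaks outnumbered gained ones under every setting tried. Requiring a distance of 200 kb left 327 lost peaks. A fold change above 2 gave 245 gained and 329 lost, an adjusted p under 0.01 gave 262 and 325, and a minimum mean count of 50 gave 189 and 224. A test against a fold change of 1.5, made from the deposited log2 fold changes and standard errors, called 38 gained and 49 lost, 2.53% of the desert peaks against 4.64% of all peaks, so most calls in deserts do not show a change beyond 1.5-fold by that test. With a limit of 5 kb, 571 peaks lay near a listed enhancer. The median log2 fold change ranged from -0.11 to -0.05. Leaving out peaks of repeated sequence, leaving out peaks within 10 kb of a listed enhancer, and using starts of every transcript of protein-coding genes were added after seeing the data, and each kept all counts within 1.5 times. No paired analysis was possible because the tables hold no value per library, and for the same reason leaving out replicates was not run. Leaving out soft-masked repeats was not run because the reference used here is all in capitals. Low read counts limit the calls, since 1087 desert peaks had a mean count under 25 and a median standard error of 0.47.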
